A study of Mus musculus with 6 samples.

Results

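Mss51 and 9 genes of myostatin and activin signalling (Mstn, Gdf11, Inhba, Fst, Fstl3, Acvr2a, Acvr2b, Smad3 and Smad7) were followed in the tibialis anterior, a fast muscle of the lower leg, after castration. They were found by gene symbol among 22180 genes with a probe set naming 1 gene, and all 10 had exactly 1 such probe set. The set was selected on earlier values of the same castrated against sham contrast, in which Mss51 stood out. The members' differences are therefore given as a description, and nothing is read from their p-values. The RNA came from male C57Bl/6 mice aged 18 weeks that had been operated at 11 weeks and had recovered for 7 weeks. One group of 3 arrays holds sham-operated mice labelled fasted, and the other group of 3 holds castrated mice labelled refed. The series design has an overnight fast, then either continued fasting or a meal of 30 minutes, and 4 hours without food before the muscle was taken, while the protocol of every sample describes the meal. Castration and the refed label fall on the same arrays, so their effects cannot be told apart. Each label names a mouse but not whether mice shared a litter or cage, and the spread given here is that between the 3 samples of a group.

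Myostatin, the product of Mstn, is a secreted member of the TGF-beta family that limits muscle mass. Myostatin, its close relative GDF11 and activin A, a dimer of the Inhba product, bind the type II receptors ACVR2A and ACVR2B. These recruit a type I receptor that phosphorylates SMAD2 and SMAD3, whereas SMAD7 inhibits the signal inside the cell and follistatin and FSTL3 capture the ligands outside it. Mss51, also named Zmynd17, encodes a zinc-finger protein of skeletal muscle that is associated with mitochondria and has been described as a gene whose expression falls when myostatin signalling is blocked.

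The 250 bases before the annotated starts of Mss51 and Mstn are shown because these are the genes followed together array by array. They come from the RefSeq promoter table of build GRCm38.p6, at chr14:20496902-20497151 on the minus strand for Mss51 and chr1:53061390-53061639 on the plus strand for Mstn, and are written 5′ to 3′. Capitals mark matches on either strand to CAGAC, the core of sites bound by SMAD3 and SMAD4, to CANNTG, the E-box of myogenic helix-loop-helix factors, to AGAACA, a half-site of the androgen and glucocorticoid receptors, and to GTCTAGAC, the palindromic SMAD-binding element, which was added after the Mss51 window had been read.
Mss51: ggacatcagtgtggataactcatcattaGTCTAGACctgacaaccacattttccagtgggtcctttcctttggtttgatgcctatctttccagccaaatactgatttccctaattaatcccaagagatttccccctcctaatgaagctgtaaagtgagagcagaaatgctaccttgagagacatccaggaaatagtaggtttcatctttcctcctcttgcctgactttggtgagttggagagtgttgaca
Mstn: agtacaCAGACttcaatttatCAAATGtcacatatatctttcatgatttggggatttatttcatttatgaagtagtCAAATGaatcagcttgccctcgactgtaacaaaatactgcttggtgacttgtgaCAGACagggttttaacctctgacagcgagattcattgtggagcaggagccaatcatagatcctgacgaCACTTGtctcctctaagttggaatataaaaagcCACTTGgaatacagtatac

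The Mss51 window held 1 match, GTCTAGAC, at bases 222 to 215 before the start, and none to the other motifs. GTCTAGAC occurred in 55 of 32851 windows of the same length in the table, or 0.167%. As this motif was added after the Mss51 window had been read, nothing is read from that share. The Mstn window held 2 CAGAC and 4 CANNTG matches, the nearest E-box at bases 19 to 14 before the start. CAGAC was found in 42.2%, CANNTG in 66.2% and AGAACA in 16.1% of all windows. No matches overlapped in either window, and a match is only a match of letters. Of the other members, 6 had a window in the table, and Fst and Smad7 had none.

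The 6 arrays had median log2 values between 5.04 and 5.10 and correlated across genes at 0.9895 to 0.9924. All 8 muscle markers, Acta1, Ckm and Myh4 among them, lay at or above the 99.8th percentile of mean level. Their list means overlapped between the groups, while the groups of Mb (log2 difference −0.25, lower in castrated samples) did not. Castrated sample 1 stood apart in 7 slow-fibre genes such as Myh7. After each gene had been centred on its own mean, these genes averaged 0.99 on that array, against −0.24 and −0.23 on the remaining castrated arrays and −0.35 to −0.073 on the sham arrays, and all 7 had a higher castrated mean. Sham sample 3 had the lowest value of 6 tendon markers, −0.52 against −0.22 and 0.033 in the other sham samples and −0.019 to 0.40 in castrated samples. Of these markers 5 of 6 were higher in castrated samples, by a median of 0.50 on the log2 scale, and the groups of Kera (0.89) and Mkx (0.52) did not overlap. For markers of fat cells the list means did not overlap between the groups, while the groups of every single gene did. The mean of 5 adipocyte genes lay between −0.29 and 0.0048 in the sham group and between 0.077 and 0.14 in the castrated group, with 4 of the 5 higher and a median log2 difference of 0.18. The defining genes Adipoq and Plin1 were dim, with 47.8% and 45.2% of all genes below them in mean level. The largest difference in this list was that of Lep (0.51), its dimmest gene, with 25.7% of all genes below it. The list means of fibroblast, endothelial, macrophage, Schwann cell and satellite cell markers overlapped between the groups, while within these lists the groups of Pi16 and Cldn5 (lower in castrated samples) and of Emcn and Vcam1 (higher) did not overlap. Values are from whole muscle, where fewer cells of a type and less RNA per cell cannot be told apart. The part of these markers in the differences below was not tested.

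Mss51 was the member with the largest difference, and it was lower in castrated muscle. Its log2 values were 9.34, 9.18 and 8.59 in sham samples 1 to 3, and 6.55, 7.59 and 7.24 in castrated samples 1 to 3. The groups were separated by 1.00 on the log2 scale between the lowest sham and the highest castrated sample. The sham mean was 9.04 ± 0.39 and the castrated mean 7.12 ± 0.53 (SD, n = 3 each), a log2 difference of −1.91 (standard error 0.27), or 3.77-fold lower. Among all 22180 genes it had the 2nd most negative difference, and 1 gene had a larger absolute difference. The lowest castrated value belonged to sample 1, which has the high slow-fibre values, and without that sample the difference was −1.62. Without sham sample 3 it was −2.14.

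**Figure D1:**
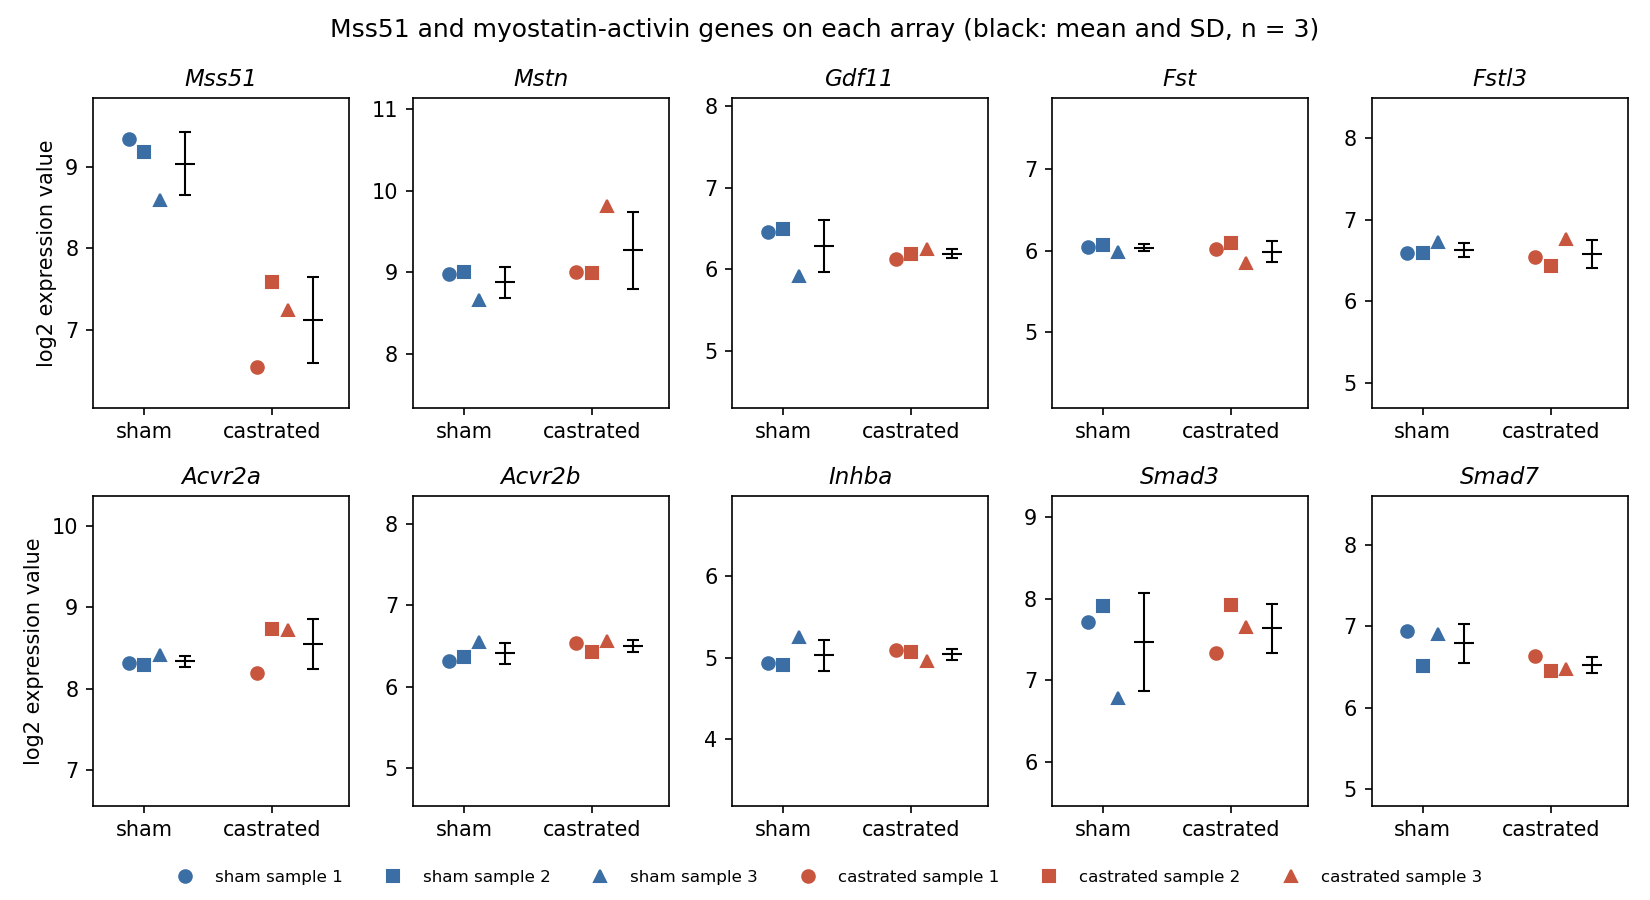
Log2 expression values of the 10 members on each array, with sham samples on the left and castrated samples on the right of each panel. Every panel spans the same number of log2 units, and black marks give the mean and SD of 3 samples. Mss51 has all castrated samples (6.55 to 7.59) below all sham samples (8.59 to 9.34), and the other 9 members overlap.

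Mstn did not follow Mss51 from array to array. Its log2 values were 8.98, 9.01 and 8.66 in sham samples and 9.01, 8.99 and 9.82 in castrated samples. Castrated samples 1 and 2 and sham samples 1 and 2 all lay between 8.98 and 9.01, sham sample 3 lay below them and castrated sample 3 above. The means were 8.88 ± 0.19 and 9.27 ± 0.47 (SD, n = 3 each), a log2 difference of 0.39 (standard error 0.22), and without castrated sample 3 the difference was 0.12. Sham sample 1 and castrated sample 2 had almost equal Mstn values, 8.98 and 8.99, with Mss51 at 9.34 and 7.59. Sham sample 3 was the lowest of its group in both genes. Among castrated samples the highest Mstn value, in sample 3, came with the middle Mss51 value of 7.24.

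**Figure D2:**
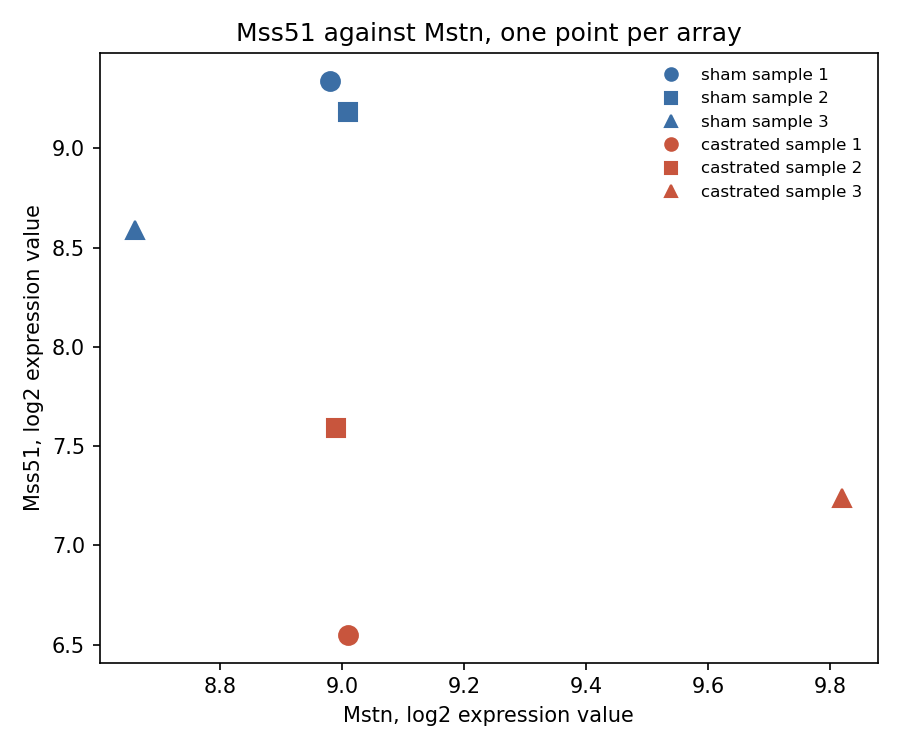
Mss51 against Mstn, both as log2 expression values, with 1 point per array. The arrays of sham samples 1 and 2 and castrated samples 1 and 2 have Mstn values between 8.98 and 9.01 while their Mss51 values run from 6.55 to 9.34.

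The other ligands differed little. Gdf11, which patterns the axial skeleton and shares receptors with myostatin, had log2 values of 6.45, 6.49 and 5.91 in sham and 6.13, 6.18 and 6.25 in castrated samples. All castrated values lay inside the sham range, and the log2 difference was −0.093 (standard error 0.15). It was −0.28 without sham sample 3, the low sham array, and 0.0098 without sham sample 2. Inhba, which encodes the subunit of activin A, stood at 4.93, 4.91 and 5.25 in sham and at 5.09, 5.07 and 4.96 in castrated samples, a difference of 0.011 (standard error 0.12). Its sign turned under quantile normalization and under centring on array medians. Inhba was the dimmest member, at the 41.5th percentile of mean level, and 4.34% of 1105 olfactory receptor genes, which muscle is not known for, were as bright or brighter. For the other 9 members this share was at most 0.814%.

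The secreted inhibitors were level between groups. Follistatin, Fst, which binds activins and myostatin, had log2 values of 6.05, 6.07 and 5.99 in sham and 6.02, 6.10 and 5.85 in castrated samples, a difference of −0.049 (standard error 0.10). All 6 values lay within 0.25. Fstl3, a follistatin relative with the same ligands, stood at 6.59, 6.59 and 6.73 in sham and 6.55, 6.43 and 6.76 in castrated samples, a difference of −0.054 (standard error 0.11). Either sign turned when 1 castrated array was left out, to 0.021 for Fst without sample 3 and to 0.022 for Fstl3 without sample 2.

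The receptors had small positive differences with overlapping groups. Acvr2a had log2 values of 8.32, 8.29 and 8.42 in sham and 8.19, 8.74 and 8.72 in castrated samples, a difference of 0.21 (standard error 0.15). Castrated samples 2 and 3 lay above all sham samples and castrated sample 1, the array high in slow-fibre genes, lay below them. Without that array the difference was 0.39. Acvr2b, the other type II receptor, stood at 6.31, 6.36 and 6.55 in sham and at 6.53, 6.42 and 6.56 in castrated samples, a difference of 0.098 (standard error 0.11).

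Of the intracellular members, Smad3 was the most variable within a group. Its log2 values were 7.72, 7.91 and 6.79 in sham and 7.34, 7.93 and 7.65 in castrated samples, and the difference of 0.17 (standard error 0.27) became −0.17 without sham sample 3. That array was also the lowest of all 6 in Mstn and Gdf11. Smad7, the inhibitory SMAD that is itself induced by the pathway, stood at 6.94, 6.51 and 6.91 in sham and at 6.64, 6.45 and 6.47 in castrated samples. It had the most negative difference after Mss51, −0.26 (standard error 0.13), a value that ran from −0.40 to −0.19 with an array left out. Sham sample 2 lay among the castrated samples, so the groups overlapped.

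**Figure D3:**
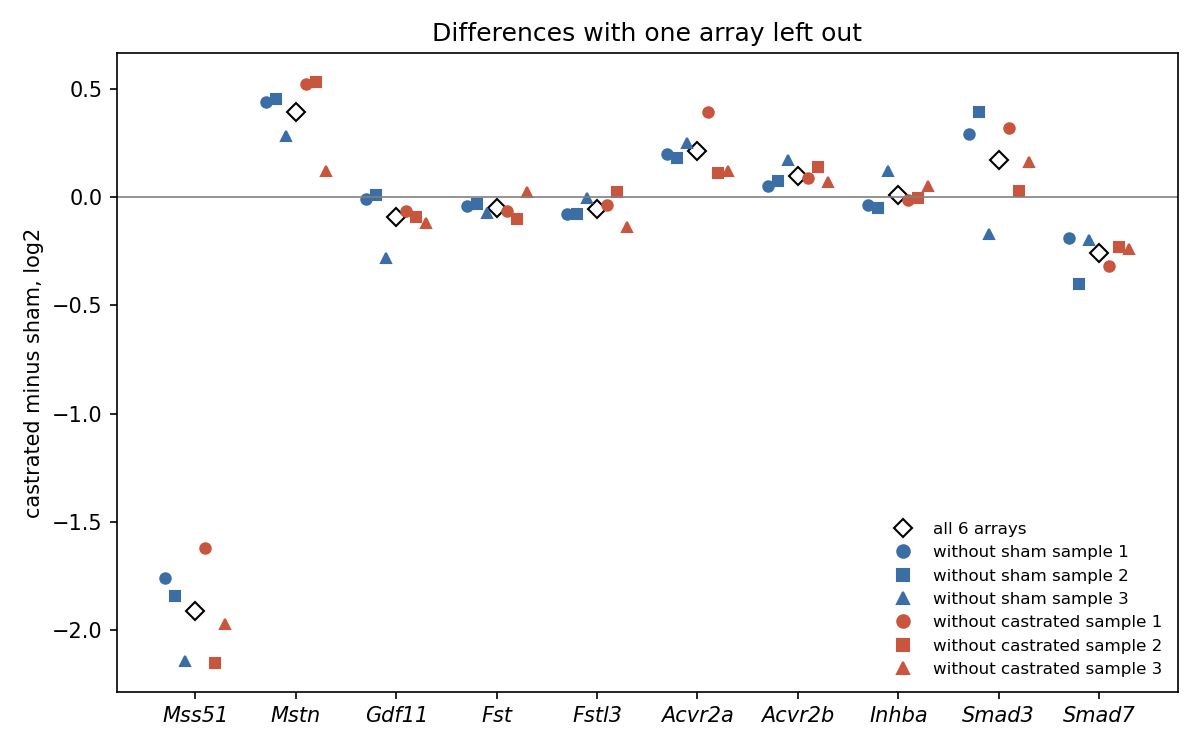
Castrated minus sham log2 difference of each member with all 6 arrays (open diamonds) and with 1 array left out (filled marks). Mss51 stays between −2.15 and −1.62, Mstn ranges from 0.12 to 0.53, and Gdf11, Fst, Fstl3, Inhba and Smad3 cross 0.

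By limma over all genes, 0 of the 10 members had an adjusted p under 0.05, where 3 of 22180 genes, or 0.0135%, did. At an unadjusted p under 0.05 there was 1 member, Mss51. The castrated samples all lay below the sham samples for 1 member, Mss51, against 7.02% of all genes, and all above for 0 members, against 5.73% of all genes. Since this contrast chose the members, nothing is read from these counts. Of the members 5 were higher and 5 lower. Their median difference was −0.019 on the log2 scale, and that of all genes was −0.0056.

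Around the members, 54 of 57 listed genes of myostatin, activin and TGF-beta signalling were measured, and none passed the limma test over all genes (smallest adjusted p = 0.680). At an unadjusted p under 0.05 there were 4, or 7.41%, against 7.13% of all genes. Their differences ran from −0.27 to 0.27, with 24 higher, 30 lower and a median of −0.025, which was 0.0060 after quantile normalization. Groups did not overlap for 6 higher and 6 lower genes, 11.1% of the list in each direction, against the 5.73% and 7.02% of all genes given above. The genes with the smallest p in the list were Ltbp1, Postn, Chrd and Bmp1, and none of these passed. Ltbp1, which anchors latent TGF-beta in the matrix, had a log2 difference of −0.27, and the matrix protein gene Postn one of 0.27. The BMP antagonist Chrd differed by 0.24 and Bmp1, a protease that frees myostatin from its propeptide, by 0.26. Chrd was dim, at the 40.8th percentile of mean level, with 4.80% of olfactory receptor genes as bright or brighter.

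Among 9 other ligand genes, 5 were higher and 4 lower (6 and 3 after quantile normalization). Inhbb, the activin B subunit, differed by −0.21, with all castrated samples (5.15 to 5.40) below all sham samples (5.42 to 5.62). Tgfb1 differed by −0.033 and Tgfb2 by −0.060. Receptors and co-receptors were all within 0.11 of no difference, 4 of 9 higher and 5 lower (5 and 4 after quantile normalization). Of the type I receptors, Acvr1b differed by −0.072 and Tgfbr1 by −0.063, and Acvr1c, an activin and nodal receptor, by 0.085. Acvr1c was dim, at the 26.4th percentile of mean level, with 12.9% of olfactory receptor genes as bright or brighter. Its difference ran from −0.21 to 0.26 with an array left out, so a lack of change cannot be read from it. The TGF-beta type II receptor Tgfbr2 differed by −0.026.

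Of 11 other inhibitors and binders, extracellular apart from the sarcomeric Tcap, 8 were higher and 3 lower, and it was 6 and 5 without sham sample 3. Wfikkn1, whose product binds myostatin and its propeptide, differed by 0.21, with all castrated samples (5.74 to 5.89) above all sham samples (5.44 to 5.71). Its relative Wfikkn2 differed by 0.073. The proteoglycan decorin, Dcn, differed by −0.015 and the follistatin-like Fstl1 by 0.065. Tcap, a sarcomeric protein reported to bind myostatin, differed by 0.096, and its groups did not overlap. Of 6 proteases that process the ligands, 2 were higher and 4 lower. Furin, which cuts the propeptide, differed by −0.12, and Tll2, of the Bmp1 family, by −0.027.

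Of 12 other SMADs and their regulators, 10 were lower and 2 higher, with a median of −0.13. This was 9 and 3 after quantile normalization and 11 and 1 after centring on medians, and none passed. Of all 22180 genes, 11423 were lower, against 11144 after quantile normalization and 12522 after centring on medians. Smad2, the partner of Smad3, differed by −0.13, and the common partner Smad4 by 0.0060, with all 6 values between 9.42 and 9.50. The inhibitory Smad6 differed by −0.031. The corepressor genes Skil and Ski differed by −0.21 and −0.039. Skil, which TGF-beta induces, had all castrated samples below all sham samples, but only just. Sham sample 3 and castrated sample 2 both rounded to 6.37. The ubiquitin ligase gene Smurf1 differed by −0.14. Of 7 target genes, 3 were higher and 4 lower, with a median of −0.016. The split was 4 and 3 after quantile normalization, 6 and 1 without sham sample 1 (median 0.075) and 5 and 2 without castrated sample 3 (median 0.064), and the median was 0.18 without castrated sample 2. Ccn2, a connective tissue factor, differed by 0.16 and Pmepa1, a feedback inhibitor, by −0.079. Fbn1 and Gdf1 were not analysed here.

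**Figure D4:**
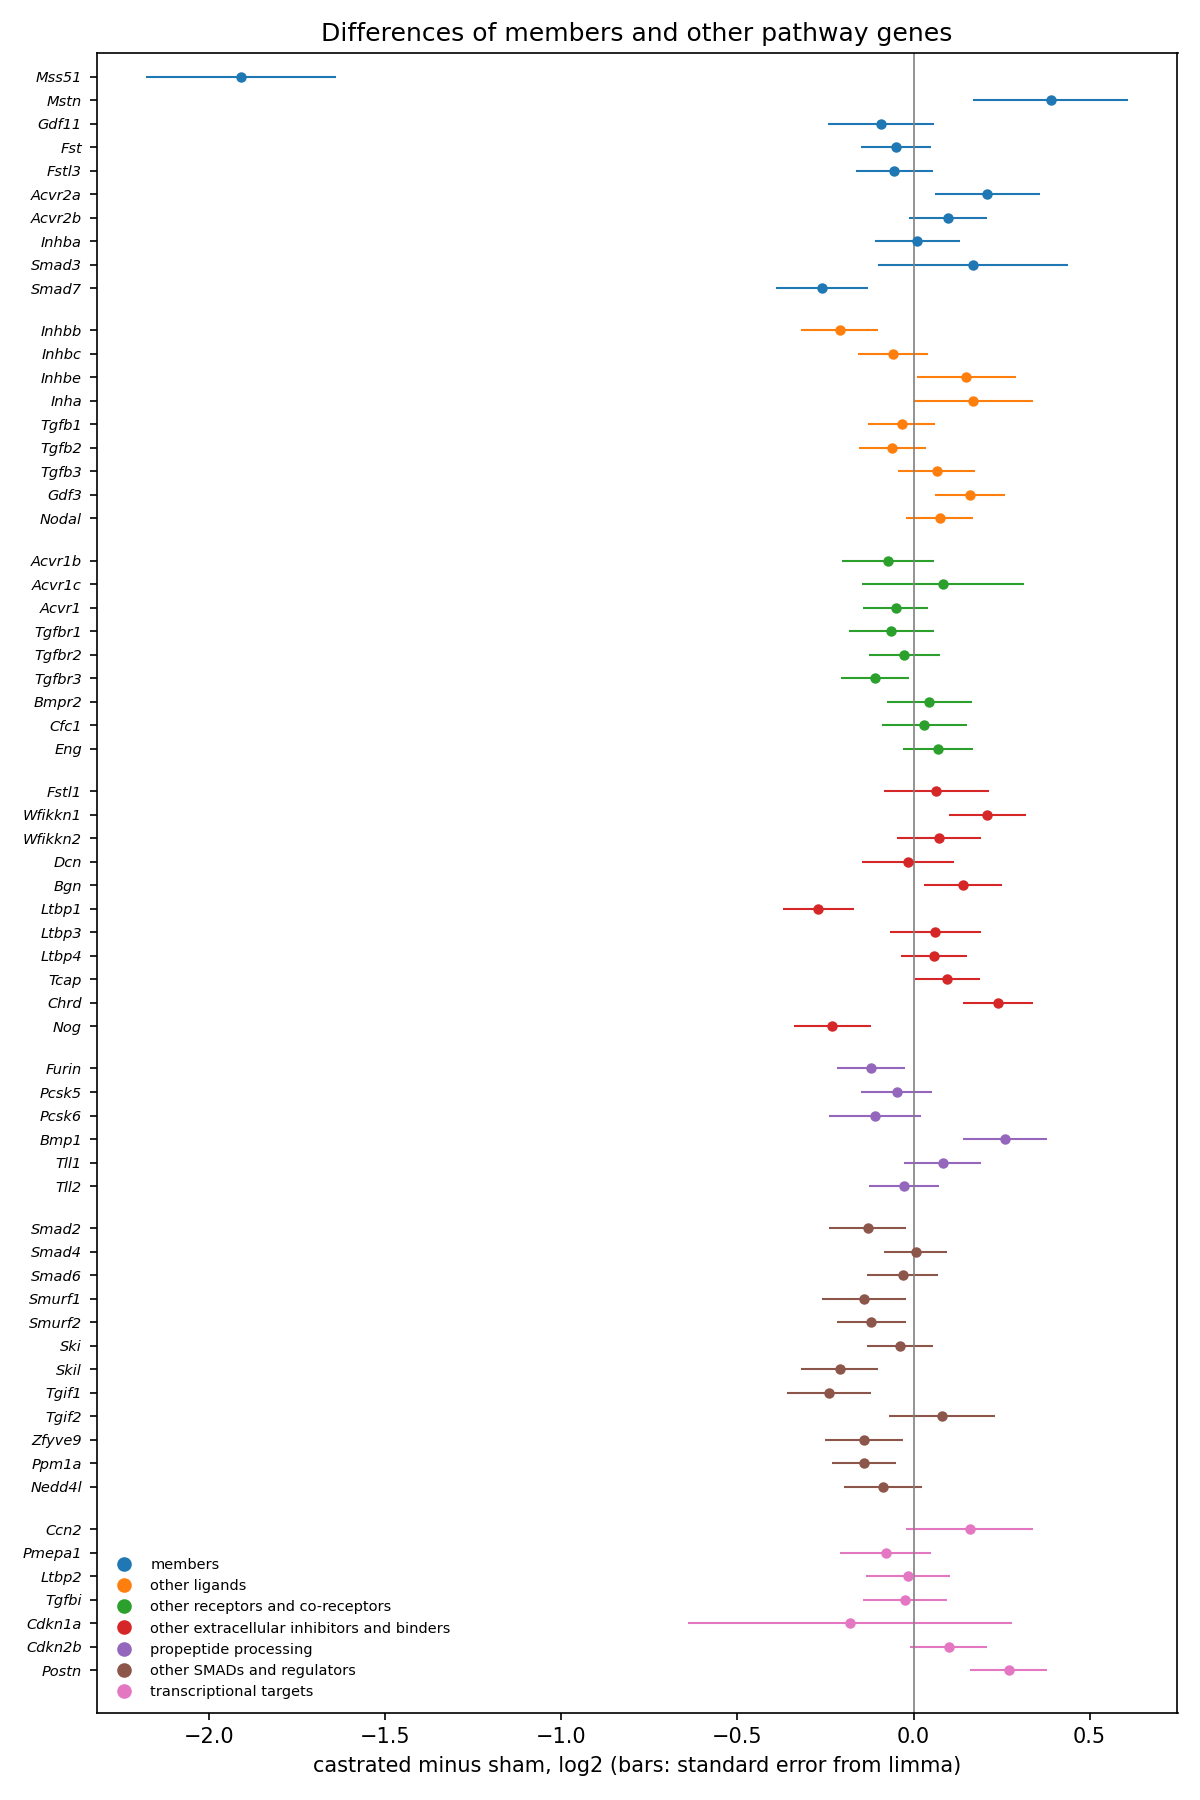
Castrated minus sham log2 differences of the 10 members and of 54 other pathway genes by role, with standard errors from limma as bars. Mss51 lies at −1.91, and the 54 other pathway genes lie between −0.27 and 0.27.

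The genes most like Mss51 over the 6 arrays were sought among 151 named genes with a mean level above the 50th percentile and values ranging over at least 1 log2 unit. Both groups enter this comparison, so likeness includes the difference between them, and it is a description. The highest Pearson r were 0.978 for Tmem100, 0.973 for Neto2, 0.953 for the spermine oxidase Smox and 0.900 for the complement gene C7. Tmem100, a membrane protein gene, had log2 values of 8.31, 8.31 and 7.63 in sham and 6.67, 7.02 and 7.04 in castrated samples. Like Mss51, it was lowest within sham in sample 3 and within castrated in sample 1. The most opposed were Arrdc2 (r = −0.991), the metalloprotease inhibitor Timp4 (−0.939), cardiac actin Actc1 (−0.921) and the stress-inducible Gadd45g (−0.910). Arrdc2, an arrestin-domain gene, stood at 8.48, 8.43 and 8.63 in sham and at 9.52, 9.03 and 9.16 in castrated samples.

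For Mstn, likeness was weaker. The highest r were 0.814 for the microRNA gene Mir181a-2, 0.693 for the sodium pump subunit Atp1b2, 0.642 for the glutathione transferase Gstm2 and 0.641 for Depp1. Mir181a-2 stood at 5.39, 5.74 and 5.68 in sham and at 5.91, 5.98 and 6.48 in castrated samples, highest in castrated sample 3 as Mstn was. The lowest were −0.832 for Lrrc52, −0.708 for the ketone body enzyme Bdh1, −0.707 for the endothelial junction gene Cldn5 and −0.697 for the microRNA gene Mir23a. None of these 8 genes was among the 8 named for Mss51. With so few picked from 151 genes, little overlap is expected, so nothing is read from this.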

How the data were processed

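Per the labels' protocols, RNA was prepared from about 25 mg of muscle on DNase-treated columns, and 300 ng went into biotin labelling for Affymetrix whole-transcript arrays. The authors deposited log2 expression values, 1 per probe set and array. Array medians were 5.04 to 5.10. Partek is named, without a version, per the submitters' processing notes. The normalization method and genome build were not given in the sources used here. Precision is limited by the number of arrays.

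Of 41345 probe sets, 23521 carry 1 platform symbol, 1814 several and 16010 none. Symbols were updated by Entrez identifier, with 23328 matched in the GRCm38.p6 RefSeq gene table, and each gene took its probe set with the highest mean, giving 22180 genes. No gene was filtered out. Differences, standard errors and p-values came from limma 3.58.1 (R 4.3.3), with lmFit and then eBayes on 6 arrays and no covariate. The adjustment was Benjamini-Hochberg across all 22180 genes, with a threshold of 0.05. The fit was tested on simulated data with 200 changed genes and independent normal noise of each gene's own spread. It recovered 18% of changes of 0.5 on the log2 scale and 74% of changes of 1, with 3 false calls. These rates belong to that setting and may differ where fewer genes change. Changes smaller than 0.5 were not simulated. Named genes were the members, 24 pathway genes fixed whatever their values (1 of them is not reported here), the 4 pathway genes with the smallest p, and the 4 most and 4 least correlated genes for Mss51 and Mstn, without unnamed gene models. The members and lists were chosen with earlier results of these data known. Protein identities of paired ligands and receptors had been planned and are not analysed here. Figures were drawn with matplotlib 3.10.9.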

Additional observations from a re-analysis of the deposited data

How the results depend on the processing

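With 14 alternatives (8 in processing or model and 6 leaving out an array), the Mss51 difference stayed negative, from −1.87 after quantile normalization and −1.93 after median centring to between −2.15 and −1.62 with an array left out. The Mstn difference stayed positive, 0.42 and 0.37 under these scalings and 0.12 to 0.53 with an array left out. Its smallest value was the one without castrated sample 3. The number of genes past the threshold by limma was 9 among genes brighter than the 25th percentile, 16 among those brighter than the 50th, 10 with a trended and robust variance prior, and 0 without variance moderation, where 1412 genes had an unadjusted p under 0.05. With an array left out it was 3 to 4. Fewer genes are tested under the filters, and Mss51 then passed (limma adjusted p = 0.0292 and 0.0137). In the other alternatives it did not, with adjusted p from 0.102 to 0.761. Since Mss51 stood out in this same contrast when the set was chosen, nothing is read from its adjusted p under any alternative. Of the 54 other pathway genes, 0 passed under each of the 14 alternatives. With the replicate number as a block (replicate block), 2 genes passed and the adjusted p of Mss51 was 0.384. The numbers were not taken as pairs, since same-numbered samples' deviations from their group means correlated at only 0.033 to 0.076, though each sample correlated best with its own number. Values near background, as for Inhba, Acvr1c and Chrd, limit what the arrays can show.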
